A study of Rattus norvegicus with 6 samples.

Results

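Snx10, Chchd5, Abhd3, Taf9b, Tm4sf20 and Pdpn are 6 of the 14168 genes measured in rat kidney inner medulla. They were chosen by name from an earlier look at the log2 intensities of all 6 arrays, as genes with their lowest levels in dDAVP-infused rats and higher levels after withdrawal. The 3 groups of male Sprague-Dawley rats (body weight 200 to 250 g, ages not given) had 2 arrays each. The probe sets of the 6 genes are 10855549 (Snx10), 10839767 (Chchd5), 10803207 (Abhd3), 10938952 (Taf9b), 10929445 (Tm4sf20) and 10881293 (Pdpn), 1 for each gene. Every rat carried a subcutaneous osmotic minipump for 5 d, had a fixed ration of food and drank freely. Pumps of the vehicle group held saline, run at 1 µl/h. In the dDAVP group the pumps delivered desmopressin, which activates the vasopressin V2 receptor, at 40 ng/h. The withdrawal group received the same 5 d infusion of dDAVP. Its pumps were then taken out under light enflurane anaesthesia and the tissue was collected 3 h later, so the end of the infusion and the anaesthesia cannot be told apart. Whether the 2 arrays of a group come from different rats is not in the labels, so an error given here measures the spread between arrays, which may be technical.

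The V2 receptor sits on the basolateral membrane of collecting duct principal cells, where it raises cyclic AMP and activates protein kinase A. This signal moves the water channel Aqp2 to the apical membrane and, over days, also alters transcription. The 6 genes belong to no common pathway: they serve endosomes, mitochondria, phospholipid turnover, transcription initiation and the cell surface. In the arrays Aqp2 had log2 intensities of 13.16 and 13.23 with vehicle, 13.40 and 13.30 with dDAVP and 13.23 and 13.14 after withdrawal. Both dDAVP arrays were highest, opposite to the order of the 6 genes. This was seen in 3.14% of all genes as deposited, and in 8.6% once cyclic loess had evened out shifts between arrays. Aqp2 is at the top of the range, with 99.99% of genes below its mean level. The receptor gene Avpr2 had the same order, at 11.59 and 11.32, 11.63 and 11.71, and 11.45 and 11.04. Other principal cell markers did not all go with Aqp2. Of the 8 measured, 6 had a lower mean with dDAVP than with vehicle, where the median log2 difference of all genes was -0.11. In 0 of the 8 were both dDAVP arrays lowest, beside 33.6% of all genes. Among genes of like mean level the share was 9.24% to 15.9%, so a count of 0 does not set these markers apart.

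Because the 6 genes share an order of levels, the promoter windows of RefSeq (build GRCr8, 250 bases before and 50 bases after the start of each gene) were searched for 11 motifs on both strands. All but Tm4sf20 matched by symbol, which gave 5 windows. The 3 windows printed here are those with the CRE core or an AP-1 site, the motifs tied to cyclic AMP and to immediate early signalling. They lie at chr4:81943073-81943372 on the + strand (Snx10), chr3:136814857-136815156 on the + strand (Chchd5) and chr5:160918910-160919209 on the - strand (Pdpn), and are written 5′ to 3′ with every match of the 11 motifs in capitals.
Snx10: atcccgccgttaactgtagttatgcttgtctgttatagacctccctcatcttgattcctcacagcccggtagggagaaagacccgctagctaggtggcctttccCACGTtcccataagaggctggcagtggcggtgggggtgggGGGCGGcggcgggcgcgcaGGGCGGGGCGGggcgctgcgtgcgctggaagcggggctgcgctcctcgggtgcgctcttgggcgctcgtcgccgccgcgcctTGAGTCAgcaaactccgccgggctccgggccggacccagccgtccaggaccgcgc
Chchd5: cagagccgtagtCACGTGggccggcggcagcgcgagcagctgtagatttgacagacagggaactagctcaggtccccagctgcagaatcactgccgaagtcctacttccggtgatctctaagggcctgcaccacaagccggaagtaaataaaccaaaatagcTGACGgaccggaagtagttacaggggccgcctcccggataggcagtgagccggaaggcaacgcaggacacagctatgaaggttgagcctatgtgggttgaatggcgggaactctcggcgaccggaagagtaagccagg
Pdpn: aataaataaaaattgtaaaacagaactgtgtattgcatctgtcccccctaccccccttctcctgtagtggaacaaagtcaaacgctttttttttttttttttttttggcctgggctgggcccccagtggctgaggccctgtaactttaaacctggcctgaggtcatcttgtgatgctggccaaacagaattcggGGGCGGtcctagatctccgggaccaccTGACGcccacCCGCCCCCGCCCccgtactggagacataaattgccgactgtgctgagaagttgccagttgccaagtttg

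The CRE core TGACG was found in 2 of the 5 windows, from position -88 relative to the gene's start in Chchd5 and from -29 in Pdpn, and 21.2% of the 33469 windows in the RefSeq table hold it. The Snx10 window had the AP-1 motif TGANTCA across its start, which 7.33% of all windows hold. The GC box GGGCGG was present in 4 of the 5 windows (Snx10, Abhd3, Taf9b and Pdpn), against 33.1% of all windows. GC content was 69% in the Snx10 window, 58% in Chchd5, 70% in Abhd3, 63.7% in Taf9b and 51% in Pdpn, with a median of 51.7% over all windows. The E-box CACGTG was found in Chchd5 (6.42% of all windows), the hypoxia element ACGTG, which overlaps it, in Snx10 and Chchd5 (19.3%), and the NFAT5 core TGGAAA in Taf9b (22.7%). The full CRE TGACGTCA (1.83% of all windows), which contains the core, the interferon element GAAANNGAA (9.71%), the GAS motif TTCNNNGAA (8.87%), the CCAAT box (37.5%) and the TATA box TATAAA (14.2%) matched in none of the 5. No motif was shared by all 5 windows, and a match of letters is a description only.

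Snx10 encodes a small sorting nexin of endosomes that takes part in the trafficking of the vacuolar proton pump and in osteoclast function. With vehicle its log2 intensities were 8.75 and 8.68, with dDAVP 8.05 and 8.16, and after withdrawal 8.64 and 8.85. The vehicle and withdrawal arrays overlapped, and both dDAVP arrays lay well below them. The means were 8.71 ± 0.05, 8.11 ± 0.08 and 8.74 ± 0.15 (SD, n = 2), so the level was 1.52-fold lower with dDAVP than with vehicle and 1.56-fold higher after withdrawal than with dDAVP. On the linear scale the deposited intensities were 429 and 410, 265 and 287, and 399 and 461.

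Chchd5 encodes a small protein of the mitochondrial intermembrane space with paired cysteine motifs, a class of proteins imported by oxidative folding. The vehicle arrays were at 10.40 and 10.54, the dDAVP arrays at 9.85 and 9.77, and the withdrawal arrays at 10.28 and 10.03. No groups overlapped, and the withdrawal arrays lay between the other groups. The group means of 10.47 ± 0.10, 9.81 ± 0.06 and 10.15 ± 0.18 (SD, n = 2) put dDAVP 1.58-fold below vehicle and withdrawal 1.27-fold above dDAVP. Without withdrawal replicate 1 the latter difference was 0.22 in log2, down from 0.35.

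Abhd3 encodes an alpha/beta hydrolase that acts on phosphatidylcholines with medium-chain or oxidised acyl groups. Its values were 9.49 and 9.57 with vehicle, 8.79 and 9.02 with dDAVP and 9.29 and 9.41 after withdrawal. As for Chchd5, the 3 groups did not overlap and withdrawal was intermediate. Means of 9.53 ± 0.06, 8.91 ± 0.16 and 9.35 ± 0.08 (SD, n = 2) correspond to a 1.54-fold lower level with dDAVP than with vehicle and a 1.36-fold higher level after withdrawal than with dDAVP.

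Taf9b encodes a histone-fold paralogue of the TFIID subunit Taf9, part of the machinery that starts transcription. It was at 7.93 and 7.90 with vehicle, at 7.12 and 7.48 with dDAVP and at 7.61 and 7.50 after withdrawal. The dDAVP arrays were 0.36 apart on the log2 scale, and dDAVP replicate 2 was only 0.02 below withdrawal replicate 2. The means were 7.92 ± 0.02, 7.30 ± 0.25 and 7.55 ± 0.08 (SD, n = 2), 1.53-fold lower with dDAVP than with vehicle and 1.19-fold higher after withdrawal than with dDAVP. After cyclic loess, which evens out the intensity-dependent shifts between arrays, withdrawal was 0.09 above dDAVP in log2 and the 2 groups overlapped, so the mean was still higher after withdrawal but the order of the arrays was lost. Without dDAVP replicate 1 the difference was 0.07, and without dDAVP replicate 2 it was 0.43.

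Tm4sf20 encodes a membrane protein of the L6 family with 4 membrane-spanning stretches, known from work on regulated cleavage of the transcription factor Creb3l1 in the membrane. The vehicle arrays gave 7.68 and 7.70, the dDAVP arrays 7.32 and 7.51 and the withdrawal arrays 8.30 and 8.08. The withdrawal arrays were the highest of the 6, and the vehicle arrays stood closer to dDAVP than to withdrawal. The group means were 7.69 ± 0.01, 7.42 ± 0.13 and 8.19 ± 0.16 (SD, n = 2), a 1.21-fold lower level with dDAVP than with vehicle and a 1.71-fold higher one after withdrawal than with dDAVP. After cyclic loess the difference between dDAVP and vehicle was -0.13 in log2, against -0.27 as deposited, and without dDAVP replicate 1 it was -0.18.

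Pdpn encodes podoplanin, a mucin-like surface glycoprotein of podocytes, lymphatic endothelium and some other epithelia that binds the platelet receptor Clec1b and links to the cytoskeleton through ezrin. It measured 7.31 and 7.27 with vehicle, 6.91 and 6.78 with dDAVP and 7.59 and 7.51 after withdrawal. Each group was tight, and withdrawal was highest, then vehicle, then dDAVP, with no overlap. The means of 7.29 ± 0.02, 6.84 ± 0.09 and 7.55 ± 0.05 (SD, n = 2) were 1.36-fold lower with dDAVP than with vehicle and 1.63-fold higher after withdrawal than with dDAVP. Cyclic loess brought these log2 differences from -0.45 to -0.28 and from 0.71 to 0.51.

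**Figure D1:**
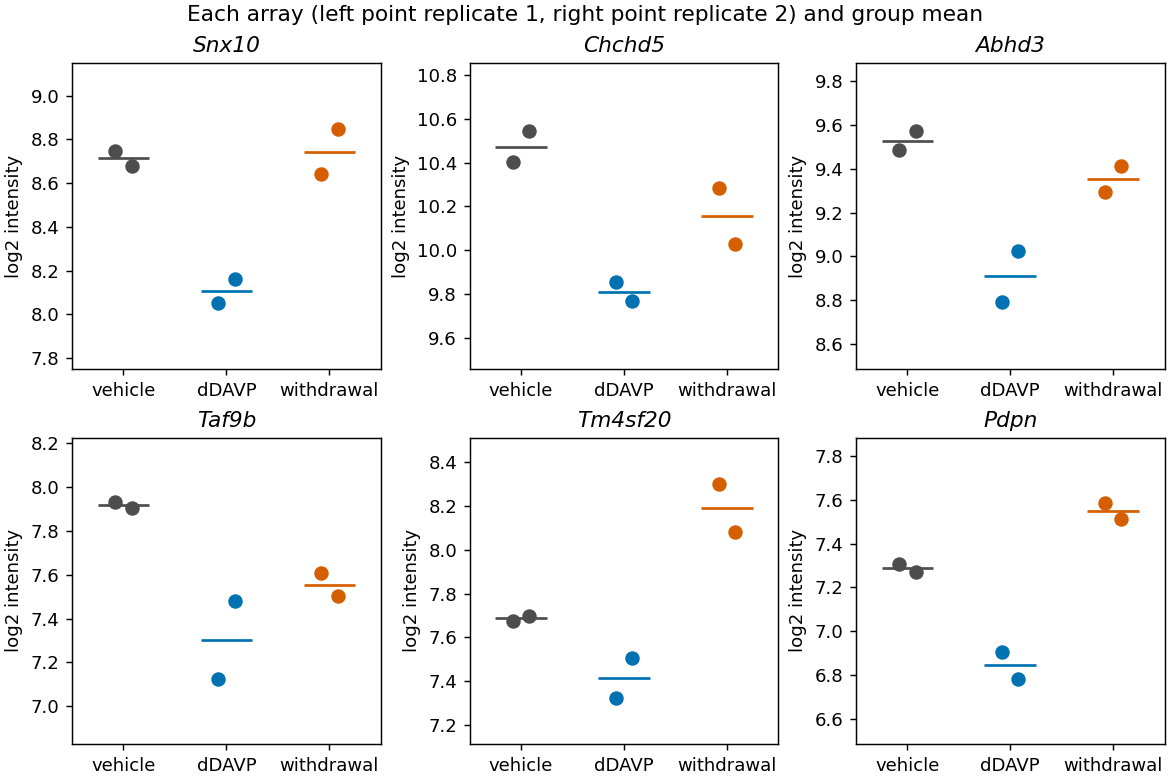
Log2 intensity of the 6 genes in each array (points, replicate 1 left and replicate 2 right) and the mean of each group (lines). Each panel spans the same log2 range, and in all 6 panels both dDAVP points are the lowest, by 0.02 for Taf9b and by 0.48 for Snx10.

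The order that these genes were chosen for was common in the deposited values. Both dDAVP arrays lay below the other 4 in 6 of the 6 genes and in 4758 of all 14168 genes, 33.6%. The opposite order, with both dDAVP arrays highest, was seen in 3.14% of genes. The dDAVP arrays also had the lowest median intensities, 156 and 165 against 175 to 182 in the other 4 arrays, and all genes together had a median log2 difference of -0.11 in dDAVP against vehicle and of 0.14 in withdrawal against dDAVP. With cyclic loess 8.21% of genes had both dDAVP arrays lowest and 8.6% had both highest. With array medians subtracted these shares were 8.58% and 10.6%. Under each of these scalings 5 of the 6 genes had both dDAVP arrays lowest, all but Taf9b. These counts describe how the genes were picked and give them no support.

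How often a gene had this order varied with its intensity. In 10 classes of genes by mean level, the share with both dDAVP arrays lowest ran from 69.5% in the second dimmest class to 9.24% in the eighth. Pdpn was in the fourth class, where 47.7% of genes had the order, and Taf9b and Tm4sf20 in the fifth, with 32.9%. Snx10 was in the sixth class (15.9%), Abhd3 in the eighth (9.24%) and Chchd5 in the ninth (10.7%). After cyclic loess the shares lay between 4.8% and 11.2% in all 10 classes.

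**Figure D2:**
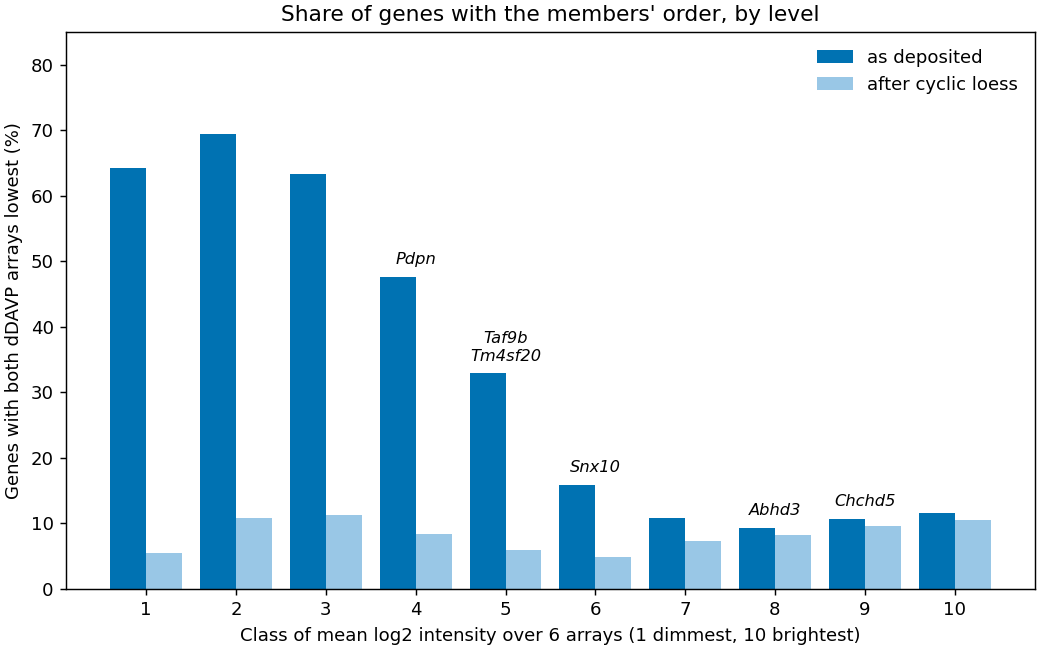
Percentage of genes with both dDAVP arrays below the other 4, in 10 classes of mean log2 intensity from dimmest to brightest, as deposited (dark bars) and after cyclic loess (light bars), with the 6 genes named above their class. The share is above 45% in the 4 dimmest classes as deposited and below 12% in every class after cyclic loess.

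How far the dDAVP arrays stood below the others separated the 6 genes from one another. The gap between the higher dDAVP array and the lowest of the other 4 arrays was 0.48 log2 for Snx10, the fifth largest of all genes. Pdpn had a gap of 0.37 (rank 18), Abhd3 of 0.27 (rank 65), Chchd5 of 0.18 (rank 439), Tm4sf20 of 0.17 (rank 496) and Taf9b of 0.02 (rank 4106). After cyclic loess Snx10 was second at 0.45, Abhd3 ranked 21 and Pdpn 95, and the gap of Taf9b was -0.10. At least 1.5-fold lower with dDAVP than with vehicle were 4 of the 6 genes (Snx10, Chchd5, Abhd3 and Taf9b), against 0.332% of all genes. At least 1.5-fold higher after withdrawal than with dDAVP were 3 (Snx10, Tm4sf20 and Pdpn), against 1.5% of all genes. Snx10 alone of the 6 met both, against 0.113% of all genes, or 0.0706% with both dDAVP arrays lowest as well. After cyclic loess 0.0423% of genes met all of this and Snx10 did not, at -0.53 and 0.57 in log2. All of these values come from the contrasts that chose the genes.

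Withdrawal against vehicle was the comparison in which the choice of these genes did not set the order directly. Chchd5 differed from vehicle by -0.32 ± 0.12 (SE) in log2 after withdrawal, with a 95% interval from -0.61 to -0.02, and by -0.19 without withdrawal replicate 2. Taf9b differed by -0.36 ± 0.14 (interval -0.69 to -0.03) and Abhd3 by -0.18 ± 0.12 (-0.46 to 0.10), or by -0.12 without withdrawal replicate 1. These 3 genes had both withdrawal arrays below both vehicle arrays, an order seen in 13.1% of all genes. Tm4sf20 was higher than vehicle by 0.51 ± 0.12 (0.22 to 0.79) and Pdpn by 0.26 ± 0.09 (0.03 to 0.49), each with both withdrawal arrays on top, as in 17.6% of all genes. Snx10 differed by 0.03 ± 0.11 (-0.23 to 0.30) and its arrays overlapped. None of the 6 passed after adjustment over all genes (limma, Benjamini-Hochberg adjusted p = 0.995 for each). None of the 14168 genes passed either, and 1.79% of all genes had an unadjusted p under 0.05 in limma.

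The differences from vehicle changed little with the scaling of the arrays. After cyclic loess they were -0.30 for Chchd5, -0.38 for Taf9b, -0.16 for Abhd3, 0.50 for Tm4sf20, 0.23 for Pdpn and 0.04 for Snx10. The median over the 6 genes was -0.07, beside 0.03 for all genes. The choice of the genes also used the vehicle and withdrawal arrays, so the sign and the error of such a difference are not independent of it. Chchd5, Abhd3 and Taf9b ranked further out in dDAVP against vehicle than in withdrawal against dDAVP: at most 0.24% of genes had a difference as low in the former, whereas 3.49% to 23.3% had one as high in the latter. For Tm4sf20 and Pdpn it was the reverse, with 9.66% and 1.33% in the former and 0.635% and 0.882% in the latter. Both of these comparisons chose the genes, and the difference between withdrawal and vehicle is their sum. This split therefore restates the signs given above and gives the genes no support.

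**Figure D3:**
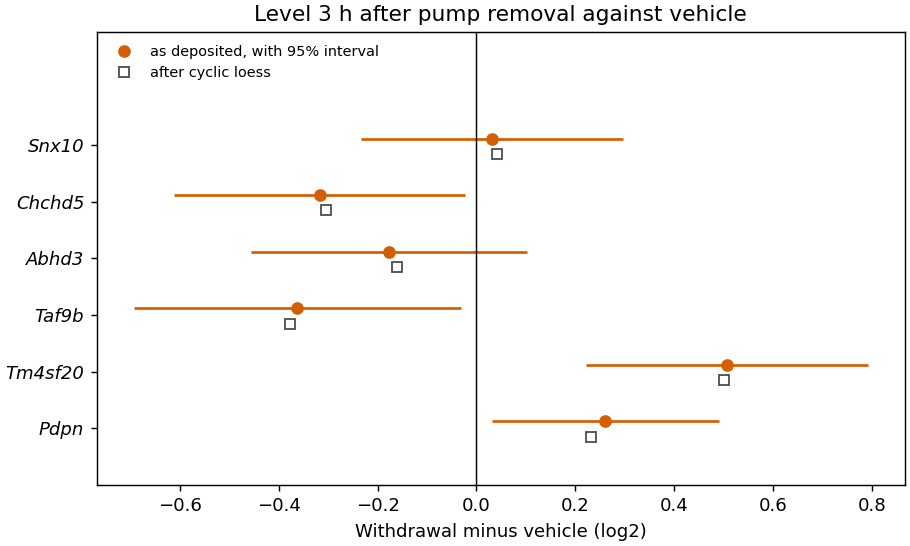
Log2 difference between withdrawal and vehicle for the 6 genes, as deposited with its unadjusted 95% interval (filled points and lines, limma) and after cyclic loess (open squares). Chchd5, Abhd3 and Taf9b lie below 0, Tm4sf20 and Pdpn above 0 and Snx10 near 0.

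The 6 genes followed one another to different degrees over the 6 arrays. Pearson's r was highest between Snx10 and Abhd3 (0.93), between Taf9b and Abhd3 and between Pdpn and Tm4sf20 (both 0.90), and lowest between Tm4sf20 and Taf9b (0.30). Averaged after centring, the 6 genes were at 0.17 and 0.19 with vehicle, -0.41 and -0.30 with dDAVP and 0.20 and 0.15 after withdrawal. Snx10 had the highest r with this mean (0.96) and Tm4sf20 the lowest (0.76). All of these correlations rest on the same 6 arrays and on the order the genes were chosen for.

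Of 2391 other named genes with at least a 1.5-fold range, the 8 most like this mean were Acox2 (r = 0.99), Sass6 (0.97), Mnda and Cxcr6 (0.96 each) and Rnf6, Rbbp4, Zfp217 and Bik (0.95 each). Acox2, a peroxisomal oxidase of branched acyl chains, was at 7.11 and 7.10 with vehicle, 6.62 and 6.71 with dDAVP and 7.22 and 7.11 after withdrawal. Sass6, which builds the scaffold of new centrioles, was at 7.83 and 7.91, 7.29 and 7.22, and 7.80 and 7.87. Both had vehicle and withdrawal at like levels, as Snx10 did. The remaining genes were an interferon-inducible nuclear protein (Mnda), the chemokine receptor Cxcr6, the ubiquitin ligase Rnf6, the histone chaperone subunit Rbbp4, the zinc finger protein Zfp217 and the BH3-only protein Bik. In all 8 the dDAVP arrays were lowest, as in 33.6% of all genes. Their log2 differences from vehicle lay between -0.61 and -0.35 as deposited and between -0.46 and -0.18 after cyclic loess. The 8 were picked for likeness to this mean. Their order, their like levels with vehicle and after withdrawal and their narrow spread follow from that choice.

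**Figure D4:**
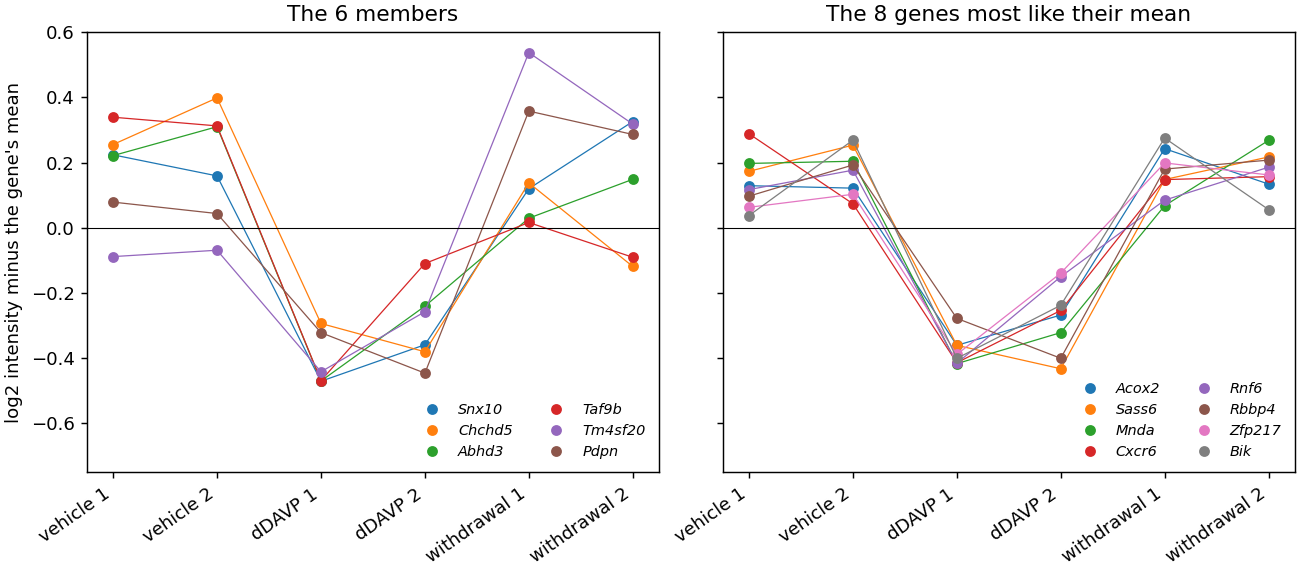
Log2 intensity minus the gene's own mean over the 6 arrays, for the 6 genes (left) and for the 8 genes with the highest Pearson r to their average (right), with lines joining the values of 1 gene. The 6 genes spread more widely in the withdrawal arrays than the 8 others do, with Tm4sf20 highest in replicate 1 and Snx10 and Tm4sf20 highest in replicate 2.

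Relatives and partners of the 6 genes were examined in 6 lists. Of 116 genes listed 91 were measured, and none passed in any of the 3 comparisons (limma, adjusted over all genes). At an unadjusted p under 0.05 there were 0 higher and 2 lower genes in dDAVP against vehicle, where 0.572% and 6.85% of all genes were. In withdrawal against dDAVP there were 11 higher and 3 lower, against 17.3% and 1.64% of all genes, and in withdrawal against vehicle there were none, against 1.79%. Both dDAVP arrays were lowest in 23 of the 91, which is 25.3% and below the 33.6% of all genes. After cyclic loess 8 of the 91 had this order, beside 8.21% of all genes.

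Sorting nexins carry cargo through endosomes, and 24 besides Snx10 were measured. Their median log2 difference was -0.08 for dDAVP against vehicle and 0.06 for withdrawal against dDAVP. In 5 of 24 both dDAVP arrays were lowest, beside 33.6% of all genes. Snx30 was at 7.33 and 7.66 with vehicle, 7.40 and 7.30 with dDAVP and 7.71 and 7.77 after withdrawal, so vehicle and dDAVP overlapped. Snx22 differed by -0.26 ± 0.12 (SE) in dDAVP against vehicle and by 0.31 ± 0.12 in withdrawal against dDAVP, and neither passed (limma, adjusted p = 0.549 and 0.26). After cyclic loess these differences were -0.10 and 0.10.

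The mitochondrial list, CHCH-domain proteins and the factors that fold them during import, had 16 measured members and medians of -0.04 and 0.14 in the same comparisons. Both dDAVP arrays were lowest in 1 member of the 16, beside 33.6% of all genes. That member was Coa4, an assembly factor of cytochrome oxidase, at 9.50 and 9.65, 9.42 and 9.34, and 9.69 and 9.90. In the list of abhydrolases and phosphatidylcholine remodelling enzymes 7 of 21 had both dDAVP arrays lowest, near the 33.6% of all genes. Abhd12, a lysophosphatidylserine lipase, was at 9.76 and 9.98, 9.70 and 9.52, and 10.01 and 9.95. Abhd16b was -0.34 ± 0.13 lower with dDAVP than with vehicle (limma, adjusted p = 0.549), or -0.18 after cyclic loess.

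Of 10 TFIID subunits measured, 3 had both dDAVP arrays lowest, beside 33.6% of all genes, and the medians were -0.10 and 0.09. Taf7 was at 8.80 and 8.67 with vehicle, 8.58 and 8.41 with dDAVP and 8.66 and 8.48 after withdrawal, where dDAVP and withdrawal overlapped. Taf10 was higher after withdrawal than with dDAVP by 0.27 ± 0.14. Taf9 itself was not analysed here. In the list of L6 proteins and regulated membrane proteolysis 5 of 10 had both dDAVP arrays lowest, or 1 after cyclic loess, beside 33.6% and 8.21% of all genes. Its Tm4sf19, a relative of Tm4sf20, was at 7.03 and 6.83, 6.66 and 6.54, and 6.94 and 6.95, back within the vehicle range after withdrawal. The log2 differences of Tm4sf19 were -0.33 in dDAVP against vehicle and 0.34 in withdrawal against dDAVP, or -0.16 and 0.13 after cyclic loess. Among 10 podoplanin partners 2 had the order, beside 33.6% of all genes, and the medians were -0.09 and 0.08. Ccl21, a chemokine of lymphatic vessels, was at 6.60 and 6.45, 6.41 and 6.25, and 6.74 and 6.55, with both dDAVP arrays lowest. Its log2 difference went from -0.20 to -0.03 after cyclic loess in dDAVP against vehicle, and from 0.31 to 0.10 in withdrawal against dDAVP. The cytoskeletal linker radixin (Rdx) was at 10.45 and 10.51, 10.16 and 10.37, and 10.36 and 10.31, where dDAVP and withdrawal overlapped.

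Markers of podocytes and lymphatic endothelium, cell types known to carry podoplanin, did not all follow it. The summed intensity of 5 podocyte markers ranged from 742 to 806 with vehicle, from 707 to 732 with dDAVP and from 739 to 791 after withdrawal. Both dDAVP arrays were lowest in 3 of the 5, beside 33.6% of all genes and 32.9% to 63.3% of genes in the classes of level these markers fall in. The 3 include the dimmest, the transcription factor Wt1, at 6.86 and 6.75, 6.65 and 6.59, and 6.92 and 6.88. The brightest, podocalyxin (Podxl), was at 7.84 and 7.70, 7.69 and 7.97, and 7.60 and 7.49, lowest after withdrawal. None of the 5 had a mean level above that of the median gene (7.96), and whether the tissue held podocytes was not tested. The summed intensity of 5 lymphatic markers ranged from 1568 to 1907 with vehicle, from 1219 to 1743 with dDAVP and from 1402 to 1419 after withdrawal. All 5 had a lower mean with dDAVP than with vehicle, by log2 differences from -0.33 to -0.06, where the median of all genes was -0.11. In 3 of them (Prox1, Ccl21 and Reln) both dDAVP arrays were lowest. These 3 lie in the second dimmest class, where 69.5% of genes had that order and the median difference was -0.17. The sum is mostly Lyve1, which was at 10.50 and 10.14, 9.70 and 10.38, and 9.93 and 9.91, with dDAVP arrays on both sides of withdrawal. In whole tissue fewer cells of a type and less RNA per cell cannot be told apart, and the part of these cells in the levels of Pdpn was not tested.

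All 8 collecting duct markers were above the median gene. Markers of the thick ascending limb, a segment outside the inner medulla, were bright as well, with Umod at 9.80 to 11.18, and their summed intensity ranged from 2893 to 4656 with vehicle, 3818 to 5524 with dDAVP and 3435 to 5082 after withdrawal. Vehicle replicate 1 and dDAVP replicate 2 stood apart from the other arrays, with 40 genes in which this pair differed from each remaining array by over 1 log2. The next such pair had 2 genes. None of the 6 genes was among the 40. Without these 2 arrays the log2 differences of dDAVP against vehicle were -0.63 for Snx10, -0.69 for Chchd5, -0.78 for Abhd3 and for Taf9b, -0.37 for Tm4sf20 and -0.37 for Pdpn. Those of withdrawal against dDAVP were then 0.69, 0.30, 0.56, 0.43, 0.87 and 0.64 in the same order of genes.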

How the data were processed

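Total RNA was extracted with Trizol and hybridised to Affymetrix whole-transcript arrays, 1 per sample, per the labels' protocols. The authors deposited 1 intensity per probe set and array, made with RMA per the submitters' processing notes (version: not given in the sources used here; build likewise). Deposited values run from 30.2 to 10778.7, a linear scale, so log2 was taken, and the number of arrays limits the precision. RMA evens out arrays, so shifts common to most genes are reduced, but a shift remained in the deposited values. Array medians were 156 and 165 with dDAVP and 175 to 182 in the other arrays. Of 28524 probe sets 14947 had 1 symbol, 318 several and 13259 none, and the brightest probe set stood for each of 14168 genes. Each of the 6 genes had 1 probe set.

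A linear model with 3 group means used all 6 arrays in limma 3.58.1 in R 4.3.3 (two-sided, adjusted p under 0.05, 3 residual and 3.21 prior degrees of freedom). It was also run on simulated data with independent noise and no shift between arrays, which cannot vouch for it on these arrays. The genes, lists, tests and alternatives were chosen with earlier results of these data known. Named besides are, from each list, the genes of smallest unadjusted p in withdrawal against dDAVP and in dDAVP against vehicle, the 8 genes most like the mean of the 6, and markers at the extremes of their lists. Detection calls and scan batches were not used here. Alternatives changed the normalization, the filter on dim genes, the probe sets, the variance prior, the block and the arrays.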

Additional observations from a re-analysis of the deposited data

How the results depend on the processing

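Signal over background was not analysed here. The count of genes called was 0 in all 3 comparisons and under every alternative except without dDAVP replicate 1, where 2 genes passed in dDAVP against vehicle and 2 in withdrawal against dDAVP (limma). They were Ypel4 and Fam111a in both, named after their values were seen. The unadjusted count in withdrawal against vehicle was 253 (limma), 665 without vehicle replicate 2, 608 without withdrawal replicate 1, 117 without withdrawal replicate 2 and 411 without dDAVP replicate 1, as without dDAVP replicate 2. The count of genes with both dDAVP arrays lowest, 4758, was 1163 after cyclic loess, 1216 with array medians subtracted and 2399 without the dimmest 25% of genes. It ran from 5065 to 5968 without 1 vehicle or withdrawal array. Without a dDAVP array only the remaining one had to be lowest, and the count was 6365 or 7976. With this easier rule it was 8790 without vehicle replicate 1 and dDAVP replicate 2. Leaving out an array cannot remove a gene from this count. Taf9b lost the order after cyclic loess and after median subtraction. The signs of the 6 genes in the contrasts that chose them, and settings that leave a gene's own difference as it is (trend, block, probe sets, dim genes, the 2 groups alone), say nothing of stability. In withdrawal against vehicle Snx10 ran from -0.07 to 0.13. The median of the 6 in that comparison ran from -0.13 without withdrawal replicate 2 to 0.01 without withdrawal replicate 1.

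The labels number the arrays 1 and 2 in each group without saying what a number shares. The deviations of same-numbered arrays correlated at -0.62 (vehicle and dDAVP), -0.00 (vehicle and withdrawal) and -0.11 (dDAVP and withdrawal), so arrays of the same number were not alike. The value of -0.62 means that vehicle replicate 1 tended to deviate as dDAVP replicate 2 did, and vehicle replicate 2 as dDAVP replicate 1. The arrays of the vehicle and dDAVP groups may therefore not be independent, and no block for this crossed pairing was fitted. With the replicate number as a block 0 genes were called, and unadjusted counts went from 1052 to 490, from 2686 to 1518 and from 253 to 128 in the order dDAVP against vehicle, withdrawal against dDAVP and withdrawal against vehicle.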

Other observations

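Besides Snx10, 9 genes were at least 1.5-fold lower with dDAVP than in both other groups with both dDAVP arrays lowest, 10 in all (0.0706% of genes), and 6 after cyclic loess, all 6 of them among the 10. They were picked on these values, and both differences share the dDAVP arrays. Cdkn1a, the p21 inhibitor of cyclin-dependent kinases, had log2 intensities of 8.08 and 9.32 with vehicle, 7.68 and 7.85 with dDAVP and 8.81 and 10.08 after withdrawal, so its vehicle and withdrawal arrays spread over more than 1 log2. The mitochondrial co-chaperone Dnaja3 was at 9.36 and 9.85, 8.60 and 8.66, and 9.30 and 9.85, with the largest gap of all genes, 0.63. Fgf7, a growth factor that stromal cells make for epithelia, was at 7.32 and 7.93, 6.75 and 6.70, and 8.13 and 7.29. The potassium channel subunit Kcne3 was at 9.11 and 8.90, 7.91 and 8.58, and 8.85 and 8.98. The glutathione transferase Gstm1 (11.23 and 10.90, 10.39 and 10.53, 11.34 and 10.97) and Phf11b (9.27 and 9.04, 8.36 and 8.57, 8.89 and 9.46) were also among the 6 that met the criteria after cyclic loess. Ccl12, Gins1, Krt15 and Snx10 met them as deposited only.

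Among 13259 probe sets with no listed gene, 5275 (39.8%) had both dDAVP arrays lowest, and in 5 of them the gap was larger than that of Snx10.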
